A study of Homo sapiens with 6 samples.

Results

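HaCaT, an immortalized line of human epidermal keratinocytes, was profiled without added agent on Illumina HT-12 bead arrays, and the levels of its transcripts are described here. The 3 arrays whose labels read control were taken, out of 6 arrays in the series, and the other 3 enter only an alternative normalization and the authors' processed table, both used for the closing checks. The culture medium was DMEM at 1.5 mM calcium with 10% fetal calf serum, and biotinylated cRNA was made from total RNA, per the labels. All 6 samples carry 1 and the same protocol text on histamine exposure. The title and the agent label, which read control for these 3, therefore decided the group. The labels call the samples a triplicate and do not say whether they are separate cultures, so the spread given below may be technical in part. HaCaT is a single line with its own history of immortalization, and it stands for itself and not for skin.

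A probe was called detected on an array when its detection p-value, which ranks it among the negative control beads, was under 0.05. Of 47322 probes, 39.2%, 40.9% and 36.7% were detected on control replicates 1, 2 and 3, and 15307 (32.3%) on all 3. The lowest signal that was called detected was 133, 153 and 147 in the units of the deposited bead signal, and the highest signals were 32247, 31898 and 31219. By gene symbol, 9379 of 20046 genes (46.8%) had a probe detected on all 3 arrays, 2680 on 1 or 2 of them and 7987 on none. Each gene is given below by its brightest probe detected on all 3, with the signals of control replicates 1, 2 and 3 in that order. Probes bind their targets with different strength and no signal is per transcript length, so the order of the signals is an order of signals and not of RNA amounts.

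The epidermis is a stratified epithelium. Its basal cells divide, hold to the basement membrane through integrins and make the keratins KRT5 and KRT14. Cells that leave the basal layer switch to KRT1 and KRT10, and later to precursors of the cornified envelope, the cross-linked protein shell of dead surface cells, which come largely from a gene cluster called the epidermal differentiation complex. Raised calcium is a known trigger of that programme in culture.

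Of the markers chosen for the keratinocyte label, KRT5, KRT14 and KRT10 were detected on all 3 arrays, and the fourth, TP63, was not analysed here. KRT14, the basal type I keratin, had signals of 7842, 9953 and 8574, and ranked 269 of 9379 genes. KRT5, its type II partner, had signals of 4694, 4424 and 3818 (rank 731). KRT10, the type I keratin of suprabasal cells, had signals of 3471, 4014 and 3207 (rank 889). The mean log2 intensities after background correction and normalization were 13.07 ± 0.07, 12.03 ± 0.22 and 11.75 ± 0.07 for KRT14, KRT5 and KRT10 (SD, n = 3). These 3 markers were thus far above the detection level, while KRT1, the partner of KRT10 described below, was not. KRT14 and KRT10 spread less between arrays than the median detected gene (SD 0.17), and KRT5 spread more. In total RNA from a dish, fewer cells of a state and less RNA per cell cannot be told apart.

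The core promoters of 11 genes followed below, 100 bases before the start and 20 after it in RefSeq GRCh38.p14, are printed 5′ to 3′ to show which letters they share and where they differ. Only promoters with a single entry in that table are used. Capitals mark TATAA between 45 and 16 bases before the start on the gene's strand, TGANTCA (the letters of an AP-1 site, which reads alike on both strands), and a run of at least 6 C or T that covers the start or lies directly beside it. KRT5, KRT10, FLG, SPRR1A, SPRR1B and LCE2B are genes of the keratinocyte programme, RPS12, RPS6, EEF1A1 and TPT1 belong to the translation machinery or follow its start-site rule, and CDC20 is a gene of mitosis.
KRT5 (chr12:52520375-52520494, minus strand): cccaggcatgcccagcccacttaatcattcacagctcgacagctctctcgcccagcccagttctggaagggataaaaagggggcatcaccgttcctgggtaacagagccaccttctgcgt
KRT10 (chr17:40822595-40822714, minus strand): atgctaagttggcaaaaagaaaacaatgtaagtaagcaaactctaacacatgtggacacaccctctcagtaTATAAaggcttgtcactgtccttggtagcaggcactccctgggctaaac
FLG (chr1:152325220-152325339, minus strand): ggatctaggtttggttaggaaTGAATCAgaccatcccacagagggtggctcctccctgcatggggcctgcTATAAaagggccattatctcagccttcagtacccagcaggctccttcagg
SPRR1A (chr1:152983981-152984100, plus strand): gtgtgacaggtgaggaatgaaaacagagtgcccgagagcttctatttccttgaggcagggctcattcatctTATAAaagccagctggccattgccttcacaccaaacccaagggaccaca
SPRR1B (chr1:153031103-153031222, plus strand): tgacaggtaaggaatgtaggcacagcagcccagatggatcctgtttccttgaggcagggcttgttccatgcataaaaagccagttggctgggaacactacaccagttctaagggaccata
LCE2B (chr1:152686023-152686142, plus strand): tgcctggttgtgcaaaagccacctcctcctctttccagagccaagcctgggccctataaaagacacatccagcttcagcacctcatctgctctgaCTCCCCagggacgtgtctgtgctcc
RPS12 (chr6:132814469-132814588, plus strand): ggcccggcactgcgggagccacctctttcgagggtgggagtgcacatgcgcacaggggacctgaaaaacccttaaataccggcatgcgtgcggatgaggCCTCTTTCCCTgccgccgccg
RPS6 (chr9:19380217-19380336, minus strand): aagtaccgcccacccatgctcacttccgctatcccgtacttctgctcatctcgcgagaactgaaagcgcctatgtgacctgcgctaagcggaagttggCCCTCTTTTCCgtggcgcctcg
EEF1A1 (chr6:73521013-73521132, minus strand): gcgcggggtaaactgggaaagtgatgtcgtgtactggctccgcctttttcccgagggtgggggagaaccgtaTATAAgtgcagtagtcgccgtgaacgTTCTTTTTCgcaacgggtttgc
TPT1 (chr13:45341164-45341283, minus strand): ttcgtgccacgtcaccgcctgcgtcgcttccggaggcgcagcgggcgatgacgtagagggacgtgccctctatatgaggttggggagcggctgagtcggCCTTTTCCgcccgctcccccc
CDC20 (chr1:43358881-43359000, plus strand): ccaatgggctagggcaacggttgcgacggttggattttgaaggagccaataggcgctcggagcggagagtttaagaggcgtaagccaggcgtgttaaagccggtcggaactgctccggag
KRT10, FLG and SPRR1A hold TATAA 29, 30 and 29 bases before the start, and 1, 1 and 3 CpG in the full window of 300 bases (250 before the start and 50 after it). FLG holds TGANTCA 79 bases before the start, and SPRR1A holds it 108 bases before, outside the stretch printed. SPRR1B, a relative of SPRR1A in the same family, has no TATAA in the window searched for it (45 to 16 bases before the start), holds TGANTCA 2 times, the first 141 bases before the start, and has 0 CpG. LCE2B has a TATAA that begins just outside that window, so it is not counted, and 4 CpG. The 4 translation promoters have a pyrimidine run at the start, 11 bases long in RPS12 and RPS6, 9 in EEF1A1 and 8 in TPT1, and hold 18 to 37 CpG. EEF1A1 holds TATAA as well, 28 bases before the start, and LCE2B holds a pyrimidine run too, 6 bases long. KRT5 and CDC20 hold none of these letters at these places, which says only that they are absent from this window. The match is exact, so the similar letters ATAAAA in the printed stretches of KRT5 and SPRR1B are not counted.

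Among genes with a symbol, the highest signals came mainly from ribosomal proteins, and in smaller number from the cytoskeleton and energy metabolism. Of the 100 brightest probes of the arrays, 58 carry no symbol and are left out of this ranking. Of the 30 genes with the highest mean signal, 14 were cytosolic ribosomal proteins, and of the highest 100, 44 were. With the mean of all detected probes of a gene in place of its brightest, 14 of the 30 genes were shared. ACTG1, cytoplasmic gamma actin, came first, with signals of 32247, 27627 and 28316. TXN, the redox protein thioredoxin, followed with 25305, 30313 and 27738, and EEF1A1, the factor that delivers aminoacyl-tRNA to the ribosome, had 23475, 27462 and 29742. ATP5F1B, the catalytic subunit of mitochondrial ATP synthase, had signals of 24198, 29489 and 26009.7. ANXA2, a membrane-binding annexin, had 24988, 27604 and 26299, and S100A10, the small protein that pairs with it, had 21825, 25698 and 26932. LDHA, which turns pyruvate into lactate, had signals of 23958, 27969 and 23592, and SLC25A5, an ADP/ATP carrier of mitochondria, had 22941, 29092 and 22879. Replicate 2 had the highest median signal (141, against 122 on replicate 1 and 133 on replicate 3), so an order between arrays is stated only from normalized values, by which ACTG1 was highest on replicate 1.

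The other genes among the 30 were TPT1, the translationally controlled tumour protein, TUBA1A (a tubulin), TMSB4X and PFN1 (actin monomer binders), H4C3 (a histone), and the ribosomal proteins RPS6, RPS12, RPS14, RPS15A, RPS29, RPL6, RPL11, RPL18, RPL27A, RPL30, RPL32, RPL38, RPL41 and RPLP1. Mean signals of the 30 ran down to 23543 for RPL32. RPL13AP5 and PPIAL4A are copies of RPL13A and PPIA, and H4C3 and TUBA1A belong to families of near-identical genes, so their probes can read related transcripts. The probe annotated to LAIR1, an inhibitory receptor of blood leukocytes, had 22987, 30878 and 27839, while the other LAIR1 probe had 146, 200.1 and 142 and was detected on 2 arrays. Which transcript the bright LAIR1 probe reads was not tested. The same held further down for F2R, the thrombin receptor, whose probes gave 19774, 22769.6 and 19666 and 239, 348 and 219, and for CLUAP1, a ciliary protein, with 19016, 22609.8 and 22551 on 1 probe and no more than 679 on any of the other 4.

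Signals of detected genes spanned a wide range. Of the 9379 genes, 220 (2.35%) had a mean signal of 10000 or more, 2754 (29.4%) from 1000 to below 10000, 5133 (54.7%) from 200 to below 1000, and 1272 (13.6%) below 200. The median was 526. At the threshold itself, TBC1D25 was just inside with detection p-values of 0.00779, 0.00779 and 0.0494, and CLDN4, a claudin, just outside with 0.0390, 0.0130 and 0.0506. CLDN4 had signals of 135, 169 and 147, so calls at this level turn on a few units of signal.

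Basal keratinocyte genes were detected without exception among those measured, at 14 of 14 list members on all 3 arrays, against 46.8% of all genes. That share covers all gene types, and among protein-coding genes it was 50.9%. Both are the background for every list count below. The lists were chosen with earlier results of these data known, so their counts describe these lists and are no independent finding. CD44, the hyaluronan receptor, had signals of 7825, 10922 and 8319, and ITGB1, the beta subunit shared by many integrins, 6722, 8805 and 6448. KRT15, a keratin of basal and hair follicle stem cells, had 5229.6, 6226 and 6267. The median signal of the detected members was 2548, above the 526 of all detected genes. SFN (14-3-3 sigma) had 4679, 6609 and 3526, LAMB3, a chain of laminin 332, 2889.6, 3460.4 and 2537, CDH3 (P-cadherin) 2162, 2633 and 1609, and BNC1, a zinc finger protein of basal cells, 566, 663 and 493. ITGA6, the alpha subunit of the hemidesmosome integrin, had 460.2, 686 and 712, and DST, its plakin linker to keratin, 197, 228 and 159.6, the lowest of the list. After normalization ITGA6 was highest on replicate 3 and DST lowest there, with SDs of 0.47 and 0.42 on the log2 scale.

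Genes of the spinous and granular layers were split. Of those with a probe, 10 of 25 were detected on all 3 arrays, 4 on 1 or 2 and 11 on none. The share (40.0%) was near the 46.8% of all genes, so the count alone says nothing particular about this list. KRT10 stood alone near the top. The next were DMKN (dermokine, a secreted protein) with 811, 1359 and 727, FLG, the profilaggrin gene, with 452, 631 and 485, and SCEL (sciellin) with 302, 416 and 307. TGM1, the transglutaminase that cross-links the envelope, had 287, 342 and 344, and CSTA, the cystatin of cornified cells, 314, 380.5 and 275. KRT1, the partner of KRT10 in skin, had 145, 183 and 129.8 and was detected on 2 arrays. KRT1 thus lay at the detection level. IVL (involucrin) had 129, 161 and 139 and was detected on replicate 2 only. KRT2, DSG1, DSC1 and TGM5 were detected on no array, with signals of 103, 105 and 112 for KRT2, the late suprabasal keratin, and 128, 131 and 107 for DSG1, the desmoglein of the upper layers. LORICRIN, the main protein of the cornified envelope, also stayed below detection, at 99.5, 128 and 119.9.

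Of cornified envelope precursors 6 of 22 were detected on all 3 arrays (27.3%, against 46.8% of all genes) and 14 on no array. PI3 (elafin), a protease inhibitor that is cross-linked into the envelope, had signals of 1147, 1424 and 1178. PPL and EVPL, the plakins periplakin and envoplakin that form the first scaffold of the envelope, had 883, 1096 and 642 and 635, 691 and 524. SPRR1A, a small proline-rich precursor, had 337, 439.7 and 299.8. SPRR2E, SPRR3, SPRR4 and LCE1A, of the same list, were detected on no array.

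**Figure D1:**
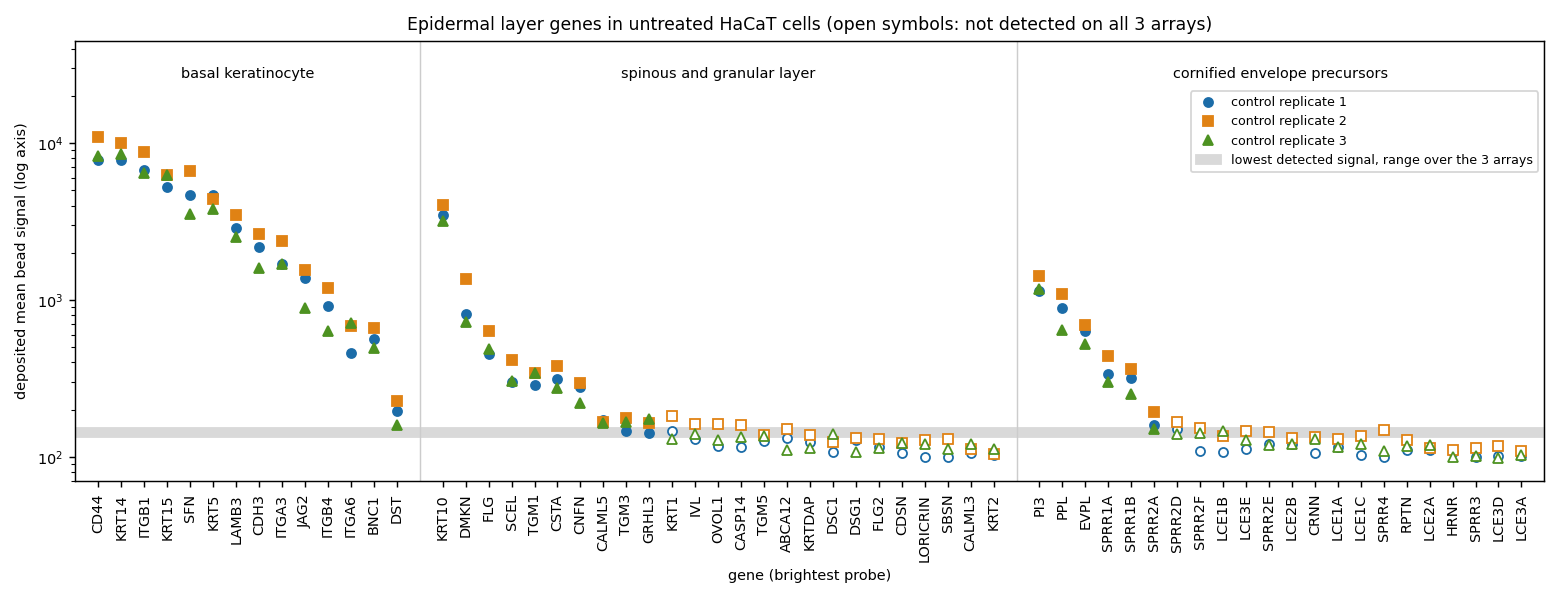
Deposited bead signal (log axis) of the genes of the basal, spinous and granular, and cornified lists, 1 symbol per control array, ordered within each list by mean signal; open symbols mark genes not detected on all 3 arrays, and the grey band spans the lowest detected signals of 133 to 153. All 14 basal genes have filled symbols, against 10 of 25 spinous and granular genes and 6 of 22 envelope genes, of which the dimmest lie at the band.

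Read in gene order, the epidermal differentiation complex showed detected genes mainly at its ends. From S100A10 to S100A1, 63 genes had a probe. Of these, 16 were detected on all 3 arrays, a lower share than the 46.8% of all genes, and 37 on none. S100 genes, small calcium-binding proteins, made up 11 of the 16. These were 11 of 17 S100 genes with a probe in the complex, and 4 of the 17 were on no array. S100A11, next to S100A10 at one end, had 4906, 6865 and 6402. At the other end S100A6 had 10191, 10873 and 10122, S100A2 3736, 4814 and 3077, S100A16 4814, 6338 and 4555 and S100A13 4236, 4453 and 2589.7. Between these lie the fused S100 genes, of which FLG and TCHH were detected out of 7, then the LCE genes, of which 0 of 18 were detected on all 3 arrays and 17 on none, and the SPRR genes, of which 3 of 11 were detected. The LCE genes encode late cornified envelope proteins. Their stretch, from LCE5A to LCE6A, also holds CRCT1, KPLCE and KPRP, and no gene in it was detected on all 3 arrays. LCE1E and CRCT1 were each detected on 1 array. S100A9 and S100A8, the calprotectin subunits, had 369.5, 593 and 425 and 259, 329.6 and 225. S100A7 (psoriasin) and S100A12 were below detection, S100A7 at 117, 128 and 125. Neighbours in this cluster are often copies of each other, so they are not independent genes, and a probe may read a close copy.

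**Figure D2:**
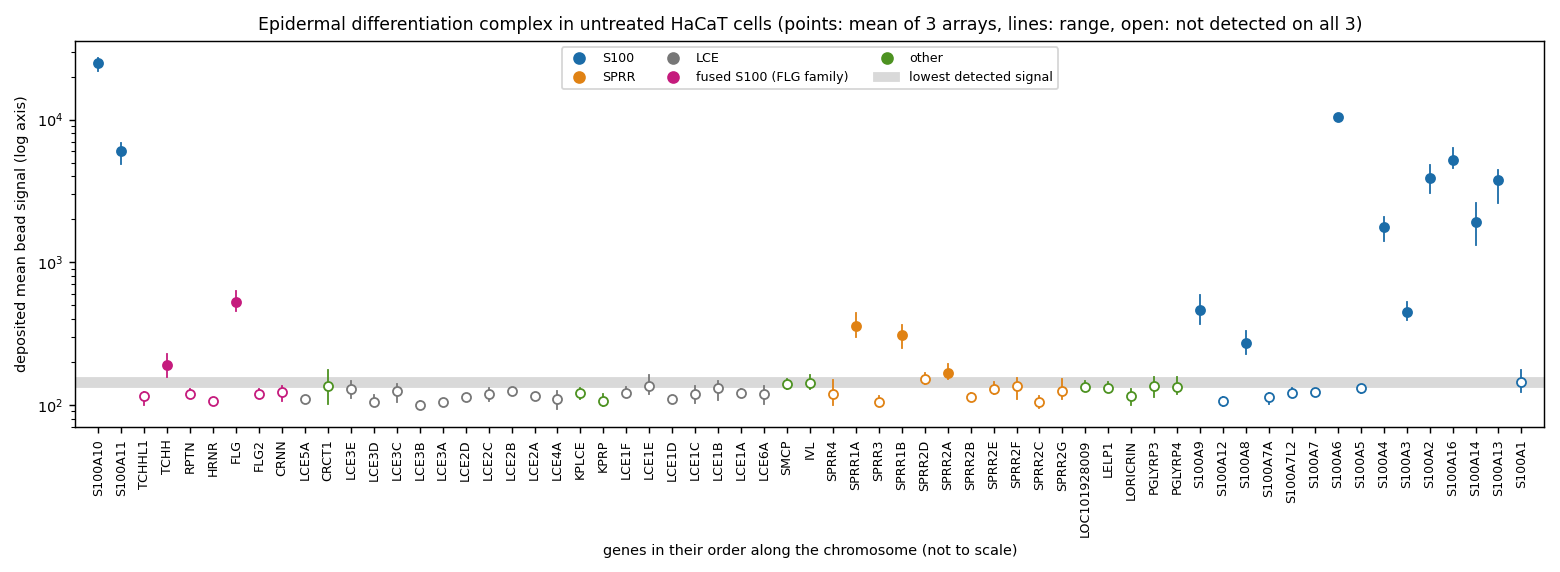
Mean deposited signal (points, log axis) and the range over the 3 control arrays (lines) for the 63 genes of the epidermal differentiation complex, in chromosome order and not to scale; open points mark genes not detected on all 3 arrays and the grey band the lowest detected signals. S100 genes at both ends reach 24818 for S100A10 and 10395 for S100A6, while the means of all LCE genes lie in or below the band.

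Of 49 keratin genes with a probe, 16 were detected on all 3 arrays, 4 on 1 or 2 and 29 on none, a lower share than the 46.8% of all genes. Some keratins outside the basal and suprabasal pairs had high signals. KRT19, a keratin of simple epithelia and of some stem cells, had 11084, 12572 and 10948, KRT8 5062, 8026 and 3569.9, KRT7 2752, 4187 and 2973 and KRT80 2046, 2488 and 1913. KRT18, the partner of KRT8 in simple epithelia, had 453, 516 and 343 on its brighter probe. KRT20 and KRT23 were not detected. KRT13 and KRT4, a pair of mucosal epithelia, were not on a list and were picked out after their values were seen. Their mean signals were 13306 and 1069. KRT16, a keratin of wounded and hyperproliferative skin, had 435, 593 and 458, and KRT6C 199, 195 and 173. Of the 5 members of the stress keratin list only these 2 had a probe with a symbol, so the others were not analysed here. None of 12 hair and inner root sheath keratins was detected on all 3 arrays, KRT25, KRT27, KRT28 and KRT71 among them, and 1 was without replicate 1.

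Cell junctions carried a strong set of signals. Of the desmosome genes, 10 of 13 were detected on all 3 arrays (76.9%), and DSG1, DSG4 and DSC1 on none. DSG2, the desmoglein of simple and basal epithelia, had 5863, 8639 and 6419.9, JUP (plakoglobin) 5677, 6516 and 4463, DSP (desmoplakin) 3002, 3499 and 2492, and DSG3, the desmoglein of the lower layers, 2941, 3443 and 2278. The desmogleins of the lower layers were thus above detection, and that of the upper layers, DSG1, was not. Of tight, adherens and gap junction genes, 13 of 16 were detected (81.3%). CTNNA1 (alpha-catenin) had 5812, 6482 and 4562, CLDN7 4862, 6221 and 4395, CLDN1 3722, 3984 and 3479.7 and CDH1 (E-cadherin) 2959.6, 3602 and 2410.1. OCLN (occludin) was the single member detected on no array, with signals of 99.6, 99.2 and 116 on its brighter probe.

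Of the hemidesmosome and basement membrane list, 12 of 14 were detected on all 3 arrays (85.7%). CD151, a tetraspanin that binds laminin receptors, had 7772, 9402 and 7602, LAMA5 5384, 5483 and 4295 and LAMC1 3174, 3170.2 and 3111, both chains of a laminin found under many epithelia. HSPG2 (perlecan) was not detected. Among integrins 7 of 12 were detected (58.3%, against 46.8% of all genes). They were ITGB1, ITGB4, ITGAV, ITGA6, ITGB5 with 2999, 3143 and 2518, ITGA3 with 1705, 2388 and 1708, and ITGA2 with 1214, 1561 and 1203. ITGA1, ITGA9 and ITGB6 were on no array. ITGA2 and ITGA3 are the collagen and laminin binding partners of ITGB1 in keratinocytes.

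Transcription factors of the epidermis were mostly detected, 16 of 20. CEBPB, a factor of suprabasal cells, had 4580.0, 4569 and 4321, MYC, a driver of growth, 3854, 4658 and 3784, and TFAP2A, the AP-2 factor of keratin promoters, 2605, 3188 and 2607. OVOL2, a repressor that keeps the epithelial state, had 1269, 1303 and 1015. ZNF750 and PRDM1, both factors of terminal differentiation, were detected on no array, with 110.0, 121 and 111 for ZNF750 and 114, 139.8 and 108 for PRDM1. Clade B serpins, which inhibit proteases inside and outside squamous cells, were detected in 8 of 11 members (72.7%). SERPINB5 (maspin) had 9863, 13184 and 9938, SERPINB13 5559.6, 5958 and 4989, SERPINB7 3392, 4158 and 3544 and SERPINB1 2246, 3034 and 1931; SERPINB9, SERPINB11 and SERPINB12 were not detected. Kallikreins and related desquamation genes were detected in 10 of 13 members (76.9%), led by KLK5, the protease that starts the kallikrein cascade, with 4026, 5693 and 4687. CTSV, a cathepsin of squamous cells, had 2199, 2363 and 1839, CTSD, a lysosomal protease, 1685, 2381 and 2031, and PRSS8 (prostasin) 1190.0, 1274 and 1691. KLK14, SPINK6 and CST6 were below detection.

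Genes of cell division were detected nearly completely. All 27 of 27 mitosis genes were detected on all 3 arrays, and 27 of 28 DNA replication genes (96.4%), against 46.8% of all genes. CDC20, the activator of the anaphase-promoting complex, had 11035, 10554 and 10265, UBE2C, its ubiquitin-conjugating partner, 9960.2, 10859 and 7701, and TOP2A, the topoisomerase that untangles chromosomes, 8187, 10553 and 6198. CCNB2, a mitotic cyclin, had 7097, 9442 and 6302. Among replication genes MCM7, of the replicative helicase, had 8179.8, 9188 and 7127, RRM1, of ribonucleotide reductase, 7462, 9397 and 6649.5, and FEN1, the flap nuclease, 5953, 7234 and 4612. ORC6, of the origin recognition complex, had 13149, 11021 and 10502 on 1 probe and 564, 695 and 557 on the other, so its place in the order rests on 1 probe. GINS1 was detected on 1 array.

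Of G1 cyclins, kinases and inhibitors, 14 of 17 were detected (82.4%). CCND1 (cyclin D1) had 7429, 8909 and 7043, CDK4, its kinase, 5468, 6973 and 5194, CCND2 3736, 3920.4 and 3414 and CCND3 1979.7, 2011 and 1683. CCNE2, a cyclin of the S phase entry, was detected on no array, nor was TERT, the telomerase reverse transcriptase, with 91.3, 98 and 129.8 on its brighter probe. Of p53 targets 14 of 17 were detected (82.4%). ZMAT3, an RNA-binding p53 target, had 2465, 5154 and 3000.4, PERP, of desmosomes and apoptosis, 1198, 1964 and 1893, and CDKN1A (p21) 1299, 1381 and 909.7. MDM2 and FAS were on no array, MDM2 at 124, 147 and 129. SFN, given above, led this list too.

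The machinery of protein synthesis was detected throughout. Of small subunit ribosomal proteins 26 of 26 and of large subunit ones 42 of 43 were detected on all 3 arrays, with median signals of 21007 and 19176. RPS12 had 23743, 26202 and 27909.7, RPS6, the phosphoprotein of the small subunit, 21469.7, 27176 and 27472, and RPL30 21534, 27459 and 24757. RPL10 was the exception, with 116, 142 and 127 and 110.2, 120.4 and 115 on its 2 probes, none of them detected. Members of one particle thus differed from 221 for RPL37 to 25952 for RPS12 in mean signal, and such values cannot be read as amounts. All 28 of 28 translation factors were detected. TPT1, counted in this list though it is no translation factor, had 22144, 26849.6 and 27475. EIF4A1, the helicase of initiation, had 22195, 23391 and 22249.5, and EEF1G 18349, 23519 and 18857.

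Energy and protein quality genes followed the same pattern. All 19 of 19 glycolysis genes were detected. GAPDH had 23299, 25808 and 20299, ENO1 (enolase) 21771, 27659 and 18636 and TPI1 13270.2, 19166 and 13208. All 26 of 26 genes of the respiratory chain and ATP synthase were detected, with COX7C at 16468, 23160.0 and 18293, ATP5F1A at 18884, 20536 and 17731 and COX8A at 17006, 20164 and 15027. All 16 of 16 proteasome core genes were detected, PSMB3 at 13761, 17115 and 12519, PSMB7 at 13258, 16148 and 12168, PSMB6 at 13133, 15039.7 and 11950.2 and PSMA6 at 11636, 15466 and 12793. Of heat shock chaperones 18 of 19 were detected. HSP90AA1, the inducible cytosolic HSP90, had 17743, 22216 and 21896, HSPA8, the constitutive HSP70, 15659, 19038 and 13186, HSPD1 (mitochondrial HSP60) 11722, 17360.3 and 14533 and HSPB1, a small heat shock protein of keratinocytes, 9912, 12951 and 12299. CRYAB was not detected. Of the actin and tubulin list 23 of 23 were detected, with ACTG1, PFN1, TUBA1A and TMSB4X on top.

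The redox list was detected in 21 of 23 members (91.3%). After TXN came GSTP1, a glutathione transferase, with 15288, 20640.0 and 17409, PRDX1, a peroxiredoxin, with 15359, 17210.3 and 16117, and FTL, ferritin light chain, with 13391, 15293 and 10602. AKR1C1 was detected on no array, but its family is near-identical and the brightest probe of AKR1C2 had a mean signal of 7429. Metallothioneins, which bind zinc and copper, were detected in 5 of 10 members, near the 46.8% of all genes. MT2A had 13979, 18432 and 12866, MT1E 13934, 17348 and 11769, MT1X 9357, 10748 and 6898 and MT1F 1186, 1265 and 919. The other MT1E probe was detected on no array, and probes of this family can read each other's transcripts. MT1B, MT1M, MT3 and MT4 were not detected. Cholesterol synthesis genes were detected in 16 of 17 members (94.1%). EBP had 3262, 3679 and 1886, NSDHL 1313, 1482 and 938, SQLE (squalene epoxidase) 1166, 1395 and 1001 and INSIG1, the sterol sensor partner, 1015, 1364 and 768. Of the barrier lipid enzymes 10 of 19 were detected (52.6%, near the 46.8% of all genes). SCD, a fatty acid desaturase, had 9602, 11248 and 8622, SPTLC1 and DEGS1, of ceramide synthesis, 3080.1, 3879.8 and 2704 and 1842, 2292 and 1975, and CERS2 1152, 1333 and 1042. ALOX12B, ALOXE3, PNPLA1 and ELOVL7 were not detected; the first 3 act in the ceramides of the cornified barrier.

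Histamine was the agent of the wider study. Of its receptors and the genes of its metabolism 3 of 11 with a probe were detected in the untreated cells (27.3%), where 46.8% of all genes were. They were ALDH7A1, an aldehyde dehydrogenase, with 2039, 2499.8 and 2023, AOC1 (diamine oxidase, which breaks down histamine) with 236, 242 and 261, and the receptor HRH1 with 192, 253 and 186. HRH1 lay little above the detection level on each array. HRH2, HRH3 and HRH4, the other receptors, and HDC, which makes histamine, were detected on no array, with 97.7, 107 and 111 for HRH2.

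Growth factor signalling genes were detected in part. Of the EGF family 6 of 10 were detected (60.0%, against 46.8% of all genes). EGFR had 1744, 2107 and 1402, and ERBB2 1050.4, 1164 and 1019.6. The ligand TGFA had 479, 698 and 537 and the feedback inhibitor ERRFI1 467, 709.5 and 458. ERBB4, EGF, EREG and BTC were on no array. Of other growth factor receptors 11 of 18 were detected (61.1%, against 46.8% of all genes). F2R, whose probes disagree as given above, led this list, though it is no growth factor receptor. Next came FGFR3, the FGF receptor of keratinocytes, with 1112, 1198 and 1133, and DDR1, a collagen receptor, with 1016, 1403 and 876. TGFBR2 had 839, 1100.1 and 815. FGFR1, FGFR4, INSR and TGFBR1 were not detected. Notch genes were detected in 16 of 20 members. HES4, a target, had 2886, 3417 and 2488, the ligand JAG2 1382, 1550.1 and 890.2, the receptor NOTCH1 1067, 1011 and 992 and LFNG, which glycosylates it, 651, 692 and 558; NOTCH4, DLL3 and DLL4 were not detected.

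Immediate early genes were detected in 16 of 17 members (94.1%), in cells with no agent added but kept in 10% serum. IER3 had 5578, 7783 and 5909.8, FOS 6014, 7496 and 5476, JUND 3107, 4125 and 3135, and EGR1, picked out after its values were seen, 3147, 3994 and 2795. MYC is given above. Nuclear receptors were detected in 15 of 26 members (57.7%, against 46.8% of all genes). RXRA, the common partner, had 2941, 3481 and 1943, AHR, a xenobiotic sensor counted in this list though it is no nuclear receptor, 2214, 2462 and 2050.4, NR2F6 1347, 1524 and 1164 and RXRB 744, 844 and 637. NR4A1, PPARA, ESR1 and ESR2 were below detection. Of matrix proteases and inhibitors 14 of 20 were detected. TIMP1, a metalloproteinase inhibitor, had 6275, 6971 and 4993, SERPINE2 1063, 1537 and 1023, PLAU (urokinase) 907, 1297 and 1031 and ADAM10, a sheddase, 589.6, 830.5 and 684. MMP2 and MMP9, the gelatinases, were on no array.

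Of the cytokine genes with a probe 9 of 29 were detected on all 3 arrays (31.0%, against 46.8% of all genes), 9 on 1 or 2 and 11 on none. IL18, which keratinocytes store as a precursor, had 8969, 9198 and 6266, well above the rest. CXCL16 had 1728, 1944 and 1706, IL1RN, the IL-1 receptor antagonist, 1342, 1986 and 1239, and CXCL8, which attracts neutrophils, 1024, 1437 and 1017. IL33, IL36A, IL36G and IL24 were not detected. Cytokine and Toll-like receptors were detected in 16 of 31 members (51.6%, near the 46.8% of all genes). IFNGR1 had 2425, 2562 and 1917, IL20RB, a receptor chain for the IL-20 family, 1907, 2176 and 2097, IFNGR2 1495, 1685 and 1482 and IL10RB 1445, 1834 and 1272. IL1R1, IL2RG, IL6R and IL13RA2 were on no array. Antimicrobial peptides were detected in 6 of 15 members (40.0%, near the 46.8% of all genes). PI3 came first, then LCN2, an iron-scavenging lipocalin, with 1049, 1598 and 911, DEFB1, the constitutive defensin, with 662, 819 and 598, and S100A9. DEFB4A, DEFB103A and CAMP were not detected.

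Interferon-stimulated genes were detected in 18 of 22 members (81.8%) in cells given no interferon. IFITM3 and IFITM2, which restrict virus entry, had 13968, 18138 and 9970.2 and 11818, 15084 and 10679, and being close copies they may share probe signal. IFITM1 had 1758, 1819 and 1512 and IFIT2 1613, 1757 and 1231. MX2 and BST2 were on no array. Antigen presentation genes were detected in 12 of 17 members (70.6%). B2M had 12551, 18759.8 and 15653, the peptide transporter TAP1 2049, 2130.4 and 1912, HLA-E 1528, 2272 and 1227 and CALR (calreticulin) 1375, 1973 and 1279.7. PDIA3, NLRC5, CIITA and HLA-DPA1 were not detected. PDIA3, which is expressed in most cells, is represented by 1 probe, with 102, 118 and 106. The probe annotated to its copy PDIA3P1 had a mean signal of 1875, and which transcript that probe reads was not tested.

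Listed markers of other cell types were mostly below detection, as summed up in the plot of list members detected. Some probes outside the lists, picked out after their values were seen, were bright. Those of CLEC2D and CCR6, genes of lymphocytes, had mean signals of 20547 and 11024.5, and that of SCGB1A1, an airway gene, 10908. The dimmest CLEC2D and CCR6 probes were detected on no array, and what the bright ones read was not tested. Of 8 melanocyte and 9 endothelial markers none was detected on all 3 arrays, and 3 and 1 of them on 1 or 2. TYR, TYRP1, SOX10, KIT, PECAM1, CDH5, KDR and FLT1 were on no array. Of the immune list 3 of 15 were detected, namely CD14 with 475, 521 and 384, CD68 with 424, 404 and 276 and HLA-DRA with 362, 363 and 292. PTPRC, the pan-leukocyte marker, was on no array, with 101, 139 and 131, as were CD3E, CD3D and CD8A. Of the mesenchymal list 3 of 19 were detected: SNAI2, also a factor of basal keratinocytes, with 1143, 1776 and 875, CDH2 (N-cadherin) with 829.6, 1227 and 904 and VIM (vimentin) with 416, 563 and 439.8. COL1A2, COL3A1, COL6A1 and COL6A3, collagens of fibroblasts, were on none, and 6 of the list were on 1 or 2 arrays. Without replicate 1, 5 of the list were detected on both other arrays. Of the Merkel cell and neuron list, TUBB3, a tubulin also found in dividing epithelial lines, had 4203, 5226 and 3467, ENO2 232, 322 and 179.6 and NEFL 158, 173 and 162, while ATOH1, SYP, SNAP25 and GAP43 were not detected. TNNT1 with 237, 262 and 218 was the single member of 13 detected in the skeletal muscle list, where ACTA1, CKM, MYH7 and MYH2 were on no array. ALB with 165, 191 and 179.5 was the single member of 12 detected in the erythroid and hepatocyte list, and its other probe was on none; HBA1, HBG1, HBD and APOB were on none. Without replicate 3, 2 members of the muscle list and 2 of the erythroid and hepatocyte list were detected on both other arrays, as was 1 melanocyte marker. Without replicate 2, 2 of the erythroid and hepatocyte list were.

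**Figure D3:**
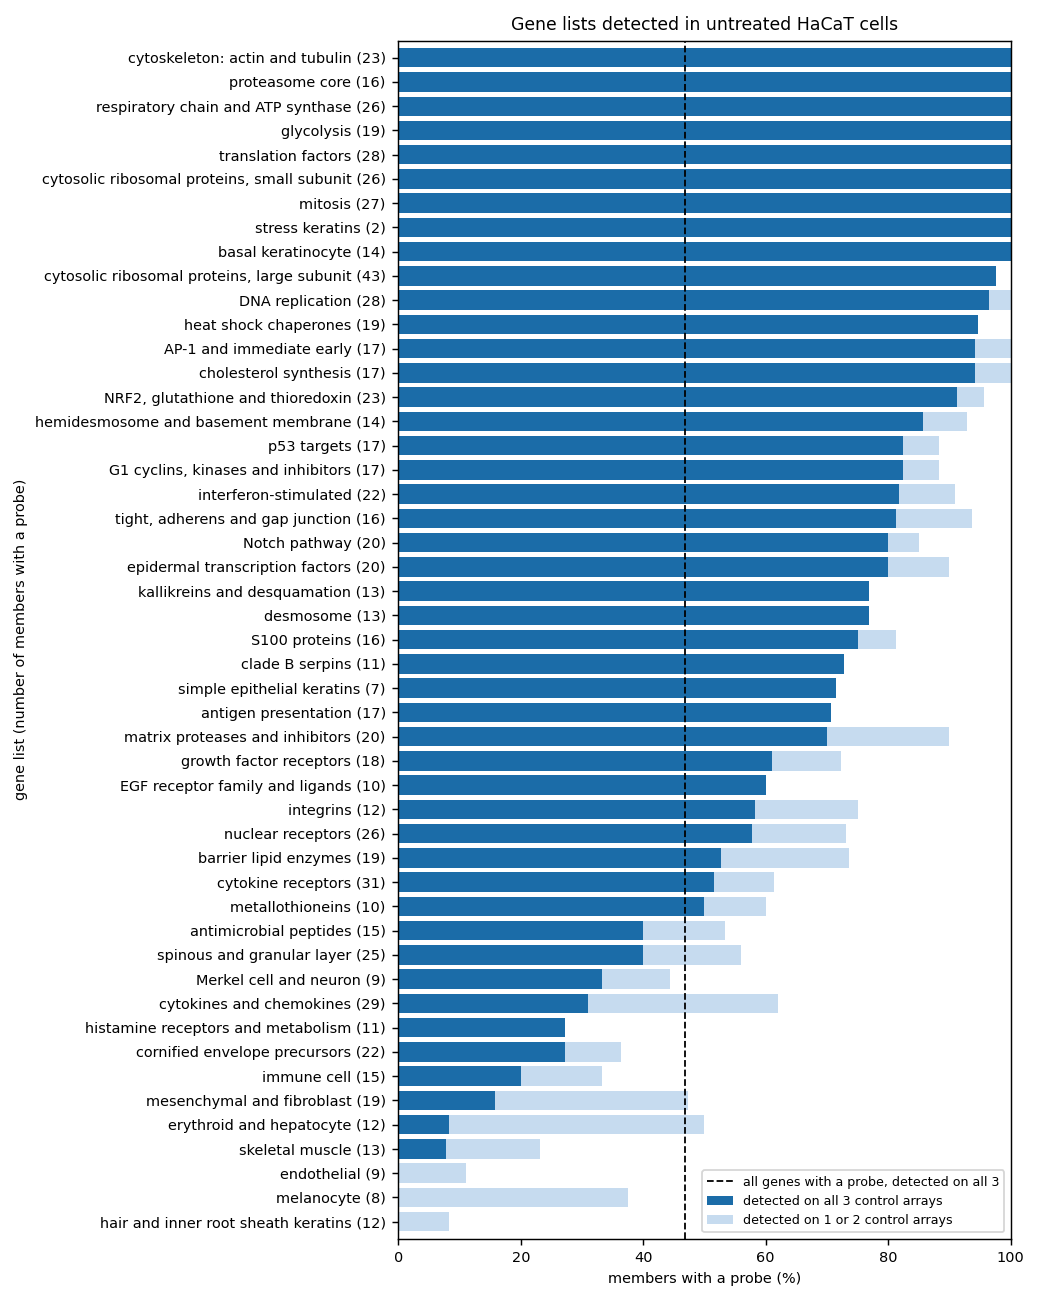
Share of the members with a probe in each gene list that were detected on all 3 control arrays (dark) or on 1 or 2 (light), with the number of such members in brackets; the dashed line is the 46.8% of all genes. Division, translation and energy lists reach or near 100%, cornified envelope precursors stand at 27.3%, and melanocyte, endothelial and hair keratin lists at 0%.

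Detected genes had promoters richer in CpG than genes that were not detected. Among 11158 genes with exactly 1 promoter in the RefSeq table, the 300-base window held a median of 27 CpG for genes detected on all 3 arrays (quartiles 20 and 35, n = 5513), 19 for those on 1 or 2 (n = 1378) and 9 for those on none (quartiles 3 and 25, n = 4267). Fewer than 5 CpG were found in 3.27% of the promoters of detected genes and in 34.3% of those on no array. TATAA in the window printed above was found in 3.70% of the detected, 10.4% of the undetected and 6.69% of all promoters. Of the 63 promoters among the 100 genes with the highest signal 14.3% held it, a larger share than among undetected genes. CpG-rich promoters are known to drive genes used in most cells.

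The spinous and cornified lists had few CpG, with medians of 3.5 and 2 over 18 and 16 promoters, and 50% and 56.2% of them held TATAA. The basal list had only 4 promoters in use, of 14 genes with a probe, with a median of 12.5 CpG and TATAA in 0 of 4. So few promoters cannot set the basal list apart from the other lists. In the 38 promoters of the 3 lists together, 47.4% held TATAA and 42.1% held TGANTCA within the 300 bases, against 6.69% and 5.86% of all promoters. For the 13 of them detected on all 3 arrays the shares were 46.2% and 46.2%, and for the 22 on no array they were 45.5% and 31.8%. A pyrimidine run at the start was found in 0 of the 13 and in 9 of the 22, and fewer than 5 CpG in 46.2% and 77.3%. Many of the 38 genes are copies from 1 cluster, so their promoters are related. In the ribosomal protein lists 41 of 51 promoters (80.4%) had a pyrimidine run at the start, against 15.3% of all, as had 34 of the 63 promoters (54.0%) of the 100 genes with the highest signal. Such a run begins mRNAs whose translation is known to follow growth signals. A match of letters is a description and not a site.

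**Figure D4:**
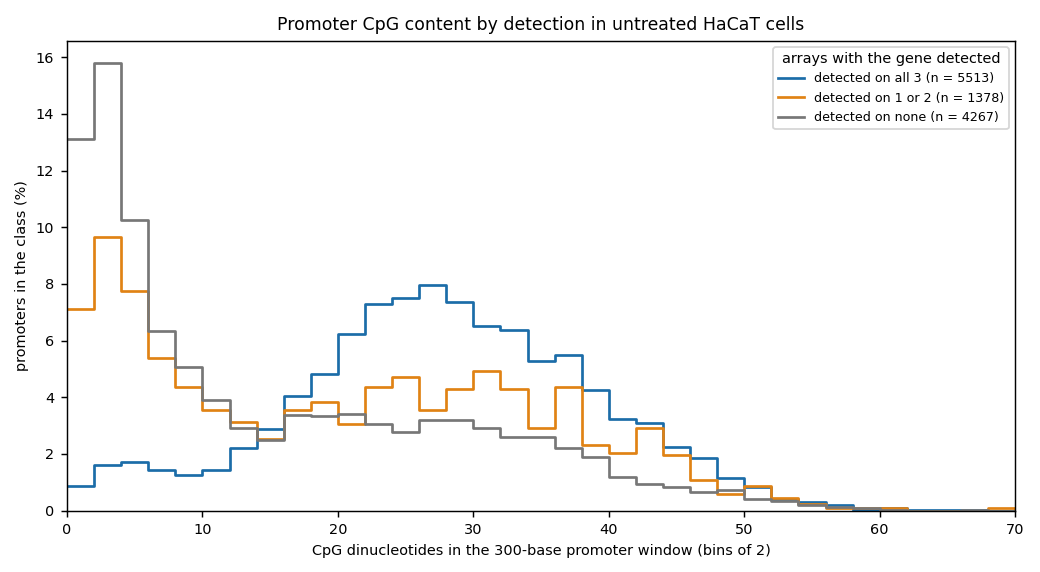
Share of promoters (%) by the number of CpG dinucleotides in the 300-base window, in bins of 2, for genes detected on all 3 control arrays, on 1 or 2, and on none. The detected class centres on its median of 27, and the undetected class piles up at low counts with a median of 9.

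By gene type, 50.9% of 17776 protein-coding genes were detected on all 3 arrays, 25.4% of 528 transcribed pseudogenes, 19.0% of 279 snoRNA genes, 12.4% of 798 lncRNA genes and 3.39% of 561 miRNA genes. By chromosome the share ran from 35.1% of 858 genes on X and 40.2% of 239 on 21 to 54.4% of 805 on 16. Gene content differs between chromosomes, and its part in these shares was not tested.

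The 3 arrays resembled each other closely. Across the 9379 detected genes the log2 intensities correlated at 0.99 between replicates 1 and 2, 0.98 between 1 and 3 and 0.99 between 2 and 3, which describes genes and not independent replicates. The SD over the 3 arrays had a median of 0.17 on the log2 scale, with quartiles of 0.11 and 0.26. It was 0.10 for genes with signals of 10000 or more, 0.13 from 1000, 0.18 from 200, and 0.26 below that. The median was 0.26 with median scaling and 0.11 in the authors' processed table. Over 1 log2 unit above both other arrays were 4 genes on replicate 1, 5 on replicate 2 and 7 on replicate 3, and as far below both were 6, 3 and 14. None of these had a mean signal of 1000 or more. With n = 3 and no second group, no test was made of these differences.

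RNA28SN5, a 28S ribosomal RNA gene, had the largest spread. Its signals were 691, 338 and 1010.4, or 9.27, 7.52 and 10.05 in log2 intensity (SD 1.29), lowest on replicate 2. IL16, a lymphocyte attractant, had 141, 355 and 179 (SD 1.01) and was highest on replicate 2. The probe annotated to MIR574 had 185, 379 and 416 (SD 0.99) and was lowest on replicate 1. CBFA2T2, a corepressor, had 176, 349 and 156, ANKRD13C-DT, a divergent transcript, 211, 319 and 153, and SLC38A6, an amino acid transporter, 198, 250.2 and 361. DEFB123, AGR2, MIR635 and IFFO1 complete the 10, with SDs of 0.84, 0.83, 0.83 and 0.83. All but RNA28SN5 had mean signals between 175 for MIR635 and 327 for MIR574, where the spread of all genes is larger too. Of these 10 genes, 5 were among the largest with median scaling and 2 in the authors' processed table.

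Among genes with a mean signal of 1000 or more, a set picked out after the values were seen, S100A14 spread most. Its signals were 1312, 1852 and 2604 (SD 0.64), against 4236, 4453 and 2589.7 for its neighbour S100A13, and after normalization the first was highest on replicate 3 and the second lowest there. EIF3A, an initiation factor subunit, had 1060.0, 1193 and 1759, YAP1, the effector of the Hippo pathway, 833, 1447 and 1534, and HSPA1A, an inducible HSP70, 1444, 2416 and 2722, each highest on replicate 3 after normalization. BNIP3, a mitophagy receptor induced by low oxygen, had 1619, 2228 and 853 and was lowest on replicate 3.

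Replicate 3 also held the lowest normalized value for more genes than the others, 39.2% of the 9379, against 30.1% on replicate 1 and 30.8% on replicate 2. In glycolysis it was lowest for 15 of 19 genes, with a median of -0.20 log2 from the mean of replicates 1 and 2. In the interferon list it was lowest for 13 of 18 and highest for 0, with a median of -0.20. For DNA replication it was lowest for 18 of 27 (-0.13) and for cholesterol synthesis for 11 of 16 (-0.18). It was lowest for 4 of 5 metallothioneins (-0.28) and 4 of 6 envelope precursors (-0.25). The metallothionein and envelope values were not examined under median scaling. Kallikrein and desquamation genes went the other way, with 7 of 10 highest on replicate 3 and a median of 0.26. These shifts depend on the scaling, since median scaling in place of quantile normalization moved all detected genes by -0.32 on replicate 3, against -0.03. Under it the medians were -0.37 for glycolysis, -0.53 for the interferon list, -0.39 for DNA replication and -0.52 for cholesterol synthesis, and the kallikrein median turned to -0.03. Relative to all genes, glycolysis and DNA replication then lay close to the background. The interferon and cholesterol lists lay below the background under both scalings, and the kallikrein list above it. Replicate 3 had the fewest probes detected, 17388 against 18548 and 19350, and the part of this in the shifts was not tested. Members of a list share their arrays, so these counts describe 1 array and are no result about the list.

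**Figure D5:**
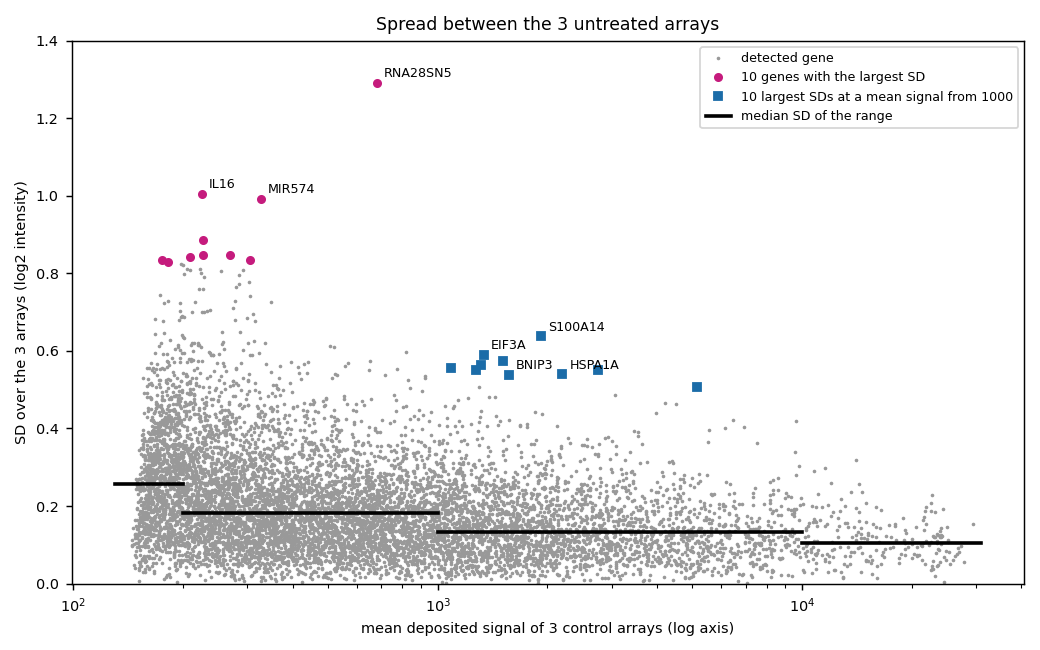
SD of the log2 intensity over the 3 control arrays against the mean deposited signal (log axis) for 9379 detected genes, with the median SD of 4 signal ranges as black lines. Pink points are the 10 largest SDs, up to 1.29 for RNA28SN5, and blue squares the 10 largest at signals from 1000, up to 0.64 for S100A14; the median falls from 0.26 below a signal of 200 to 0.10 from 10000.

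Probes of one gene often disagreed. Of 6691 genes with several probes, 1614 had all of them detected on all 3 arrays, 2233 had some and not others, and 2844 had none. Among the 3847 with a detected probe, the brightest exceeded the dimmest by a median of 2.25 log2 units, and by more than 3 in 1439. ALDOA, a glycolytic aldolase, had 12271, 16140.4 and 12093 on its brightest of 4 probes and 101, 118 and 117 on its dimmest, which was detected on no array. HSPD1 had 11722, 17360.3 and 14533 on its brightest and 124, 141 and 124 on its dimmest. Here 1 detected probe makes a gene detected, and a dim probe does not show that a transcript is missing, which holds for every gene given here as not detected.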

How the data were processed

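Total RNA of HaCaT cells was measured on Illumina HT-12 arrays, and the 3 samples labelled control were analysed. The authors' deposited intensity is the mean bead signal of each probe and is not normalized between arrays; background subtraction is not stated. Detection p-values were deposited beside it, per the file headers. The authors' processed values read as log2 with 1 shared distribution, by an unstated transform. The submitters' processing notes name GenomeStudio 2010.1 and lumi.

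Levels and ranks use deposited signals. For the spread, the 3 arrays were corrected with normexp (limma 3.58.1, R 4.3.3; control beads estimated through the detection p-values, offset 16), quantile normalized and log2 transformed. Of 47322 probes, 30112 carry 1 gene symbol, 8 several and 17202 none; 30073 matched GRCh38.p14 genes by Entrez identifier. The number of arrays limits precision, and no test was made within 1 group. The SD and the choice of the brightest probe were tested on simulated data. Background correction, normalization and detection calls were not. Members and the 50 lists were chosen with earlier results of these data known. Named by rule were the 30 highest signals, the markers, up to 4 detected and 4 undetected members per list, and the 10 largest SDs; all others were chosen after their values were seen. Alternatives covered detection, probe choice, background correction, normalization and leaving out each replicate.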

Additional observations from a re-analysis of the deposited data

Results flagged for a closer look

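Probes without a gene symbol in the annotation gave signal that no value above uses. Of 17202 such probes, 3121 (18.1%) were detected on all 3 control arrays, against 40.5% of the probes with 1 symbol, and 58 of the 100 brightest probes of the arrays were among them. They are not named here, so the list of the highest signals covers only genes with a symbol.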

How the results depend on the processing

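Without 1 control replicate, probes detected on all arrays used numbered 15694 to 16621 against 15307, genes 9507 to 9959 against 9379, list members 591 to 602 against 589, the median SD was 0.1267 to 0.1481 against 0.1702, and 22 to 28 of the 30 highest genes and 3 to 4 of the 10 largest SDs were shared. A detection p-value under 0.01 gave 8769 genes, detection on at least 2 of 3 arrays 10317, and a call by all probes of a gene 7146. With the mean of all detected probes in place of the brightest, 14 of the 30 highest genes were shared, and 27 by normalized values or by the authors' processed table. The median SD was 0.2641 with median scaling and 0.1057 in the authors' processed table. Of the 10 largest SDs, 4 were shared without background correction, 6 with an offset of 50, 5 with median scaling and 2 in the authors' processed table, against 9 with normalization over all 6 arrays, so which genes these are depends on the processing. No paired analysis was possible because only 1 group is described and no test was made. Detected members moved by more than 1.5 times in 5 of 50 lists with detection on at least 2 arrays (hair keratins 1 against 0, mesenchymal 5 against 3, melanocyte 1 against 0, skeletal muscle 2 against 1, erythroid and hepatocyte 3 against 1), in 0 at a p-value under 0.01, and in 1 to 3 of these 5 without 1 replicate. In an alternative chosen after seeing the data, the median shift of replicate 3 in the kallikrein and desquamation list was -0.0287 with median scaling, against 0.2648, and all detected genes shifted by -0.3238 with it.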
